A study of Mus musculus with 3 samples.

Results

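A set of 8 genes of the LIF and STAT3 pathway was followed through exposure of mouse embryonic stem cells to tubercidin, an adenosine analogue. The genes were Lifr, Il6st, Jak1, Stat3, Socs3, Socs2, Pim1 and Pim3. They were taken by symbol, with earlier results of these data known, and all 8 were found among the 32285 genes of the files. All 8 also passed the filter used for ratios, a mean level of 10 CPM or more (CPM, the UMIs of a gene per 1000000 UMIs of the called cells), as did 7884 genes in all. The cells were of the E14 line (129/Ola background), grown on gelatin in serum medium that contained recombinant mouse LIF, so the ligand of the pathway was supplied to every group. The 3 groups were cells given the solvent DMSO for 6 h (the control), cells given 10 uM tubercidin for 3 h and cells given 10 uM tubercidin for 6 h. No DMSO library of 3 h was made, so in the 3 h ratios tubercidin and time since treatment cannot be told apart. Each group was 1 library of single cells, so the spread between cultures is unknown and no difference was tested. Each interval below is exact, at 95%, and speaks for counting error alone.

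LIF is the cytokine that keeps mouse embryonic stem cells undifferentiated in serum culture. It binds LIFR, which pairs with gp130 (encoded by Il6st), and the receptor-bound kinase JAK1 phosphorylates the receptor chains and the transcription factor STAT3. Phosphorylated STAT3 enters the nucleus and activates target genes, among them Socs3, whose product binds gp130 and JAK1 and shuts the signal off, and the PIM kinases, which promote survival and self-renewal. RNA levels do not report the phosphorylation of STAT3, and signalling itself was not measured.

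There were 2031 called cells in the control library, 2365 in the 3 h library and 2926 in the 6 h library. Their median depth was 48452 UMIs (molecular barcodes, each standing for 1 captured RNA molecule) under DMSO, against 11877 after 3 h of tubercidin and 8004.5 after 6 h. A lower RNA content per cell and shallower sequencing cannot be told apart in these files, and levels are therefore given as CPM. In summed counts of this kind, fewer cells making an RNA and less RNA per cell also cannot be told apart. The 8 markers of embryonic stem cells summed to 4347 CPM (control), 5178 CPM (3 h) and 3785 CPM (6 h), none of them at 0, and at least 2 of their UMIs were found in 99.9 to 100% of the cells of every library. Most of this sum was Dppa5a (2549, 3555 and 2263 CPM), and the markers differed in direction: Sox2 was lower at both times (205, 80.6 and 81.1 CPM), as were Zfp42 and Nanog, and Pou5f1 (137, 159 and 213 CPM) and Esrrb were higher. The 7 fibroblast markers summed to 0.963, 1.37 and 2.19 CPM, with 2 of the 7 at 0 in each library, the 7 markers of primitive endoderm to 10.2 to 18.6 CPM with 1 at 0 in the 6 h library, and the 7 trophoblast markers to 17.9 to 20.2 CPM with none at 0. The 7 markers of 2-cell-like cells summed to at most 1.34 CPM, with 4, 6 and 2 of them at 0. The part of these markers in the results was not tested. Each pair of libraries shared 1 cell barcode.

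At 3 h all 8 genes took a smaller share of the RNA than in the control, and the counting interval of each ratio lay below 0. Ratios are log2 ratios of CPM + 1, where 0 is no difference, and intervals are for the ratio without the added 1. Across all genes tested 65.5% had such an interval, and 72.6% had a log2 ratio below 0. The median gene stood at a log2 ratio of -0.27, whereas the 8 genes had a median of -0.78 and ran from -1.47 for Pim3 to -0.39 for Stat3. The intervals of all 8 lay wholly below the median gene as well, which was so for 40.9% of all genes. Pim3, Socs3 and Pim1 were at least 2-fold lower, against a background of 5.54%, and 0 of the 8 were at least 2-fold higher, against 0.888%.

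At 6 h the genes had separated. Pim3, Pim1, Jak1, Socs2, Lifr and Il6st still had ratios to the control below 0, whereas Stat3 was above its control level and Socs3 was at its own. That is 6 of 8 below 0, where 60.3% of all genes were. Of the 8 genes, 6 had an interval wholly below 0 (51.9% of all genes) and 1 wholly above (31.7%), and the median of the 8 was -0.41 beside -0.12 for all genes tested. The same 6 genes lay wholly below the median gene and Stat3 and Socs3 wholly above it, each of which held for 41.4% of all genes. Only Pim3 was at least 2-fold lower, where 4.41% of all genes were, and 0 were at least 2-fold higher, where 2.33% were.

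Set directly against 3 h, the 6 h library had a larger share of all 8 RNAs, with every interval above 0. The same held for 51.2% of all genes, and 67.6% had a ratio above 0. With median-of-ratios or TMM factors Socs2 (-0.02 and -0.01) and Pim1 (-0.004 and -0.0003) were at about 0, and without scaling all but Stat3 and Socs3 had fewer UMIs per cell at 6 h. Relative to the median gene of that comparison, which was at 0.14, the intervals of 4 genes (Socs3, Stat3, Pim3 and Jak1) lay above and those of the other 4 held it. In all genes tested 34% lay above in this way. Socs3 was the only one of the 8 that was at least 2-fold higher, and 1.64% of all genes were; 0 were at least 2-fold lower, where 0.165% of all genes were. These comparisons share libraries, so they are not independent of each other.

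**Figure D1:**
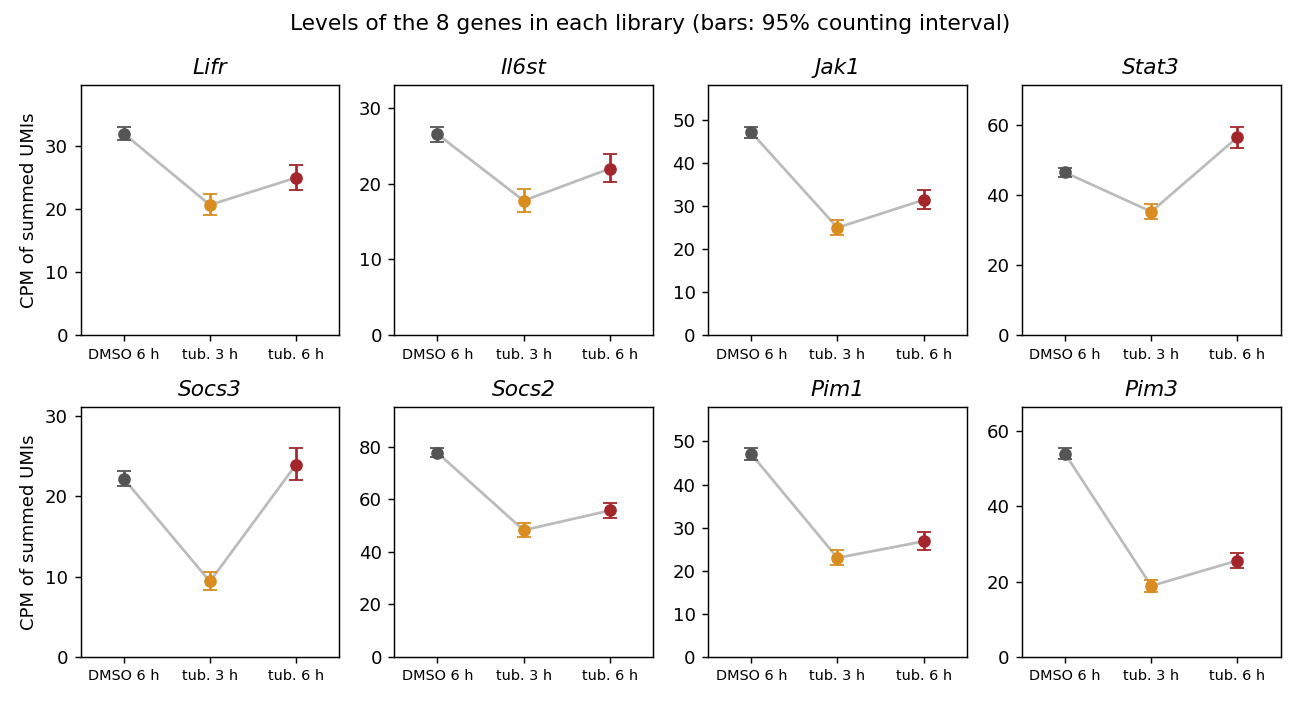
Level of each gene (CPM of UMIs summed over called cells) in the DMSO control and after 3 h and 6 h of tubercidin, 1 library each, with exact 95% counting intervals; grey lines only join the points of a gene. All 8 genes are lowest at 3 h, and Stat3 (56.4 CPM) and Socs3 (24.0 CPM) are the genes whose 6 h point is not below the control point.

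Of the genes below the control at 6 h, the receptor chains were nearest to it. Lifr (ENSMUSG00000054263, chr15:7090614-7197489, plus strand, GRCm38) was counted with 3357, 618 and 617 UMIs, which made 32.0 CPM under DMSO, 20.7 CPM after 3 h and 25.0 CPM after 6 h. Its log2 ratio to the control was -0.61 at 3 h (interval of the ratio without pseudocount -0.76 to -0.51) and -0.34 at 6 h (-0.48 to -0.23). The 3 levels had separate counting intervals, with the control highest and 3 h lowest. Il6st (ENSMUSG00000021756, chr13:112464070-112510086, plus strand), which encodes the signal-transducing chain shared by the cytokines of the interleukin 6 family, stood at 26.5, 17.8 and 22.0 CPM, in the same order. Its log2 ratios were -0.55 at 3 h (-0.72 to -0.44) and -0.26 at 6 h (-0.41 to -0.14). Both chains thus lay within the lower part of all genes, with 22.9% of the genes below Lifr and 26.8% below Il6st at 3 h.

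Jak1 (ENSMUSG00000028530, chr4:101152367-101265282, minus strand), the kinase bound to the receptor chains, stood at 47.0 CPM under DMSO, 24.9 CPM after 3 h of treatment and 31.4 CPM after 6 h. It was the lowest of the upstream components, with log2 ratios of -0.89 at 3 h (-1.03 to -0.80) and -0.57 at 6 h (-0.70 to -0.48). Only 8.60% of all genes had a lower ratio at 3 h and 17.7% at 6 h. Jak1 overlaps Gm12785 on its own strand and Raver2 on the other in GENCODE M21, and the sources used here do not state whether strand was used in counting. Raver2 itself was at 6.05, 6.06 and 8.14 CPM.

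Stat3 (ENSMUSG00000004040, chr11:100885098-100939540, minus strand), the transcription factor of the pathway, was counted with 4865, 1052 and 1392 UMIs. It took 46.4 CPM of the control library, 35.2 CPM of the 3 h library and 56.4 CPM of the 6 h library, so the 6 h library was highest and the intervals of the 3 libraries did not overlap. The log2 ratio to the control was -0.39 at 3 h (-0.50 to -0.30) and 0.28 at 6 h (0.20 to 0.37), and the ratio between 6 h and 3 h was 0.67 (0.56 to 0.80). Measured from the median gene, its ratio lay at -0.12 after 3 h and at 0.40 after 6 h. Stat5a, which overlaps it on the other strand, was at 1.14, 0.870 and 0.851 CPM. Without scaling, Stat3 had 2.40 UMIs per control cell, 0.445 per cell after 3 h and 0.476 after 6 h, and Stat3 and Socs3 were the genes of the 8 with more UMIs per cell at 6 h than at 3 h, although the median depth of a cell was lower at 6 h.

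Socs3 (ENSMUSG00000053113, chr11:117966079-117970047, minus strand), the feedback inhibitor that STAT3 itself switches on, had the largest difference between 3 h and 6 h of the 8. Its UMIs numbered 2331, 281 and 592. The control level was 22.2 CPM (21.3 to 23.1), the level after 3 h was 9.40 CPM (8.33 to 10.6) and that after 6 h was 24.0 CPM (22.1 to 26.0). Only the 3 h library was low, 2.36-fold below the control and 2.55-fold below 6 h. The log2 ratio was -1.16 at 3 h (-1.42 to -1.06) and 0.11 at 6 h, where the interval of -0.02 to 0.24 held 0, so the control and 6 h did not differ beyond counting error. Between 6 h and 3 h the log2 ratio was 1.26 (1.14 to 1.56), and 99.4% of all genes had a lower one. With TMM or median-of-ratios factors the 3 h ratio was -0.98 or -0.94, just short of 2-fold. These factors moved the median of all genes at 3 h by 0.19 and 0.23. Relative to the median gene the 3 h ratio of Socs3 was -0.90 in both. A factor per library cannot change this position, apart from the pseudocount.

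The promoter of Socs3 is shown because it was the only window of the genes that held the letter pattern bound by STAT dimers, TTCNNNGAA. This pattern reads the same on both strands. RefSeq windows of GRCm38.p6, each from 250 bases before to 50 bases after an annotated start, were found for 7 of the 8 genes, 9 windows in all. The pattern occurred in 1 of the 9, and in 8.30% of all 32851 windows. In Socs3 (chr11:117969317-117969616, minus strand) its first base lies at position -154 from the start, and it is given in capitals. The windows of Stat3 (chr11:100939491-100939790, minus strand) and Pim3 (chr15:88861944-88862243, plus strand), the genes with the highest and the lowest 6 h ratio, are shown beside it and do not hold these letters. Each is written 5' to 3' on the strand of its gene.
Socs3: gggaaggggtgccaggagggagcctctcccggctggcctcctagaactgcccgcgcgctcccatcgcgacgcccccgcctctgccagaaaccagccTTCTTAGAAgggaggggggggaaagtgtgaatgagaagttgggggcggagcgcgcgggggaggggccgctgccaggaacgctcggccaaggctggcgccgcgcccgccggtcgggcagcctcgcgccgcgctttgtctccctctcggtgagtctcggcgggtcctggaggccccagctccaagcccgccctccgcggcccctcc
Stat3: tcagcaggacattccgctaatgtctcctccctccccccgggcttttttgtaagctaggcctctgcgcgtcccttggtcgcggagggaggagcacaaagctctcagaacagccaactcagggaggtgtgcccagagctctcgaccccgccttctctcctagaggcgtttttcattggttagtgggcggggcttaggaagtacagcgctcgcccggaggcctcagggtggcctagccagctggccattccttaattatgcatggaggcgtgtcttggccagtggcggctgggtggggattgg
Pim3: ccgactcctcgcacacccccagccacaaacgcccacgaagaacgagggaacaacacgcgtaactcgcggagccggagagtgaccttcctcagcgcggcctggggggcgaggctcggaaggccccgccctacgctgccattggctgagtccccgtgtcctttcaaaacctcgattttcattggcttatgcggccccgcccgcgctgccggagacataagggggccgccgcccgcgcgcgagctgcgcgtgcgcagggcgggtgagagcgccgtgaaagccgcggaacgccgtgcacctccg
A match describes the letters of a window. Binding was not measured, and sites outside the windows were not searched.

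Socs2 (ENSMUSG00000020027, chr10:95385362-95417180, minus strand), another member of the suppressor of cytokine signalling family, known for restraining growth hormone signalling, did not share the swing of Socs3. Its level was 77.6 CPM under DMSO, then 48.2 CPM after 3 h and 55.7 CPM after 6 h, with both treated libraries well below the control. Its log2 ratios were -0.68 at 3 h (-0.77 to -0.61) and -0.47 at 6 h (-0.56 to -0.40). Between 6 h and 3 h the log2 ratio was 0.20 (0.10 to 0.32), which held the median gene, whereas that of Socs3 was 1.26.

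The PIM kinases, serine/threonine kinases made from STAT targets, were the lowest of the genes at 6 h. Pim1 (ENSMUSG00000024014, chr17:29490753-29496112, plus strand) took 47.1 CPM of the control library, 23.0 CPM of the 3 h library and 26.8 CPM of the 6 h library. It was 2.05-fold lower after 3 h (log2 interval -1.15 to -0.92), and its log2 ratio after 6 h was -0.79 (-0.93 to -0.69). Both treated libraries were far below the control, with 5.50% of all genes lower at 3 h and 8.82% at 6 h. The 3 h ratio sat at the 2-fold line and was -0.77 with median-of-ratios factors and -0.82 with TMM factors. Gm26885, which overlaps Pim1 on the other strand, was at 16.7, 6.06 and 7.74 CPM, so Pim1 is reported as uncertain where strand was not used in counting.

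Pim3 (ENSMUSG00000035828, chr15:88862186-88865726, plus strand) was the lowest of the 8 at both times. It was counted with 5656, 563 and 631 UMIs, which made 53.9 CPM under DMSO, 18.8 CPM after 3 h and 25.6 CPM after 6 h. The control was 2.86-fold above 3 h and 2.11-fold above 6 h. The log2 ratios were -1.47 at 3 h (-1.65 to -1.39) and -1.05 at 6 h (-1.20 to -0.96), and 0.761% and 3.72% of all genes were lower. Between 6 h and 3 h it was 0.42 higher on the log2 scale (0.27 to 0.61), and Pim1 was 0.21 higher (0.07 to 0.38). No gene overlaps Pim3 in the annotation. The genes nearest to Pim3 in the pair of ratios were Sgo2a, Gpcpd1 and Tmcc1, at Euclidean distances of 0.040, 0.060 and 0.067 log2 units, and 25 genes lay within 0.2. Those nearest to Stat3 were Snrpd3, Dync1h1 and Endog, at 0.016, 0.019 and 0.020, with 281 genes within 0.2. This likeness rests on 3 libraries.

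**Figure D2:**
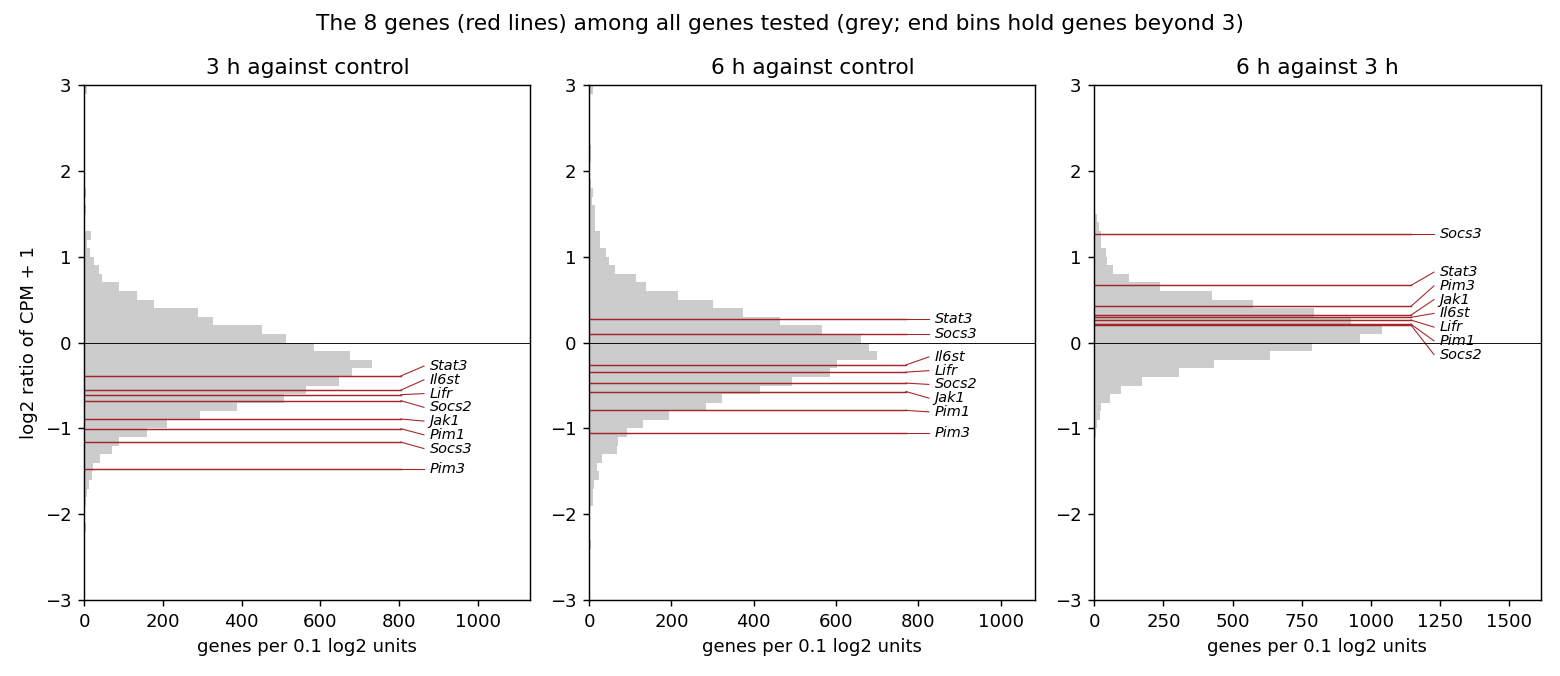
Distribution of the log2 ratio of CPM + 1 over the 7884 genes tested (grey, genes per bin of 0.1) with the 8 genes as red lines, for 3 h against the control, 6 h against the control and 6 h against 3 h. At 3 h all red lines lie below the median gene (-0.27), at 6 h those of Stat3 and Socs3 lie above 0, and between the treated libraries Socs3 (1.26) is farthest from the rest.

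Per cell and without scaling, every gene was lower than in the control, as was the depth. Mean UMIs per cell were lower by 5.39-fold for Stat3 to 11.7-fold for Pim3 at 3 h, and by 5.04-fold for Stat3 to 12.9-fold for Pim3 at 6 h. The median depth per cell was lower by 4.08-fold and 6.05-fold. Stat3 and Socs3 at 6 h (5.67-fold for Socs3) were thus lower by less than the depth was, and the other 6 genes by more.

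To compare cells at 1 depth, 4000 UMIs were drawn at random from each. Too shallow for this were 122 cells of the 3 h library, 284 of the 6 h library and 0 of the control. A Socs3 UMI was then found in 9.40% of control cells (8.17 to 10.8%), 3.92% of 3 h cells (3.16 to 4.81%) and 8.44% of 6 h cells (7.41 to 9.57%). The 3 h library stood alone, and the control and 6 h intervals overlapped. Unthinned, the shares were 60.1%, 10.9% and 16.6%, with the control far above both shallower libraries. A Stat3 UMI was found in 15.7%, 13.2% and 20.4% of thinned cells, with the 6 h interval (18.9 to 22.0%) above those of the other libraries. For Pim3 the shares were 19.7%, 7.36% and 9.92%, with the control interval (18.0 to 21.5%) above both. Lifr was in 10.6%, 8.34% and 8.59% of cells, Il6st in 10.5%, 6.24% and 8.36%, and Jak1 in 17.6%, 8.56% and 12.8%. Socs2 was in 25.8%, 17.3% and 19.8%, and Pim1 in 17.1%, 8.78% and 9.58%. The labels name 1 kind of cell, so no cell type that lacks these genes was at hand to gauge free RNA.

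**Figure D3:**
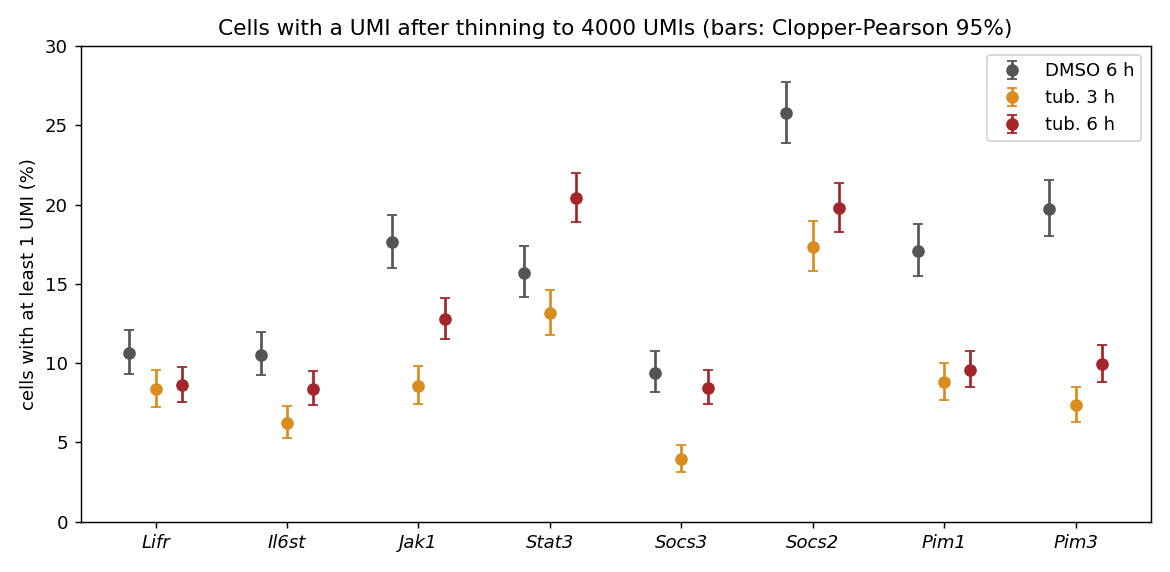
Share of cells with at least 1 UMI of each gene after every cell was thinned to 4000 UMIs (2031 control cells, 2243 at 3 h, 2642 at 6 h), with Clopper-Pearson 95% intervals. Socs3 is low at 3 h only (3.92%), Stat3 is highest at 6 h (20.4%), and Pim1 and Pim3 are below the control at both times.

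Free RNA was gauged from 10000 barcodes, those down to rank 15000 after the 5000 largest, all too shallow to be called cells. They held 9 to 242 UMIs of each gene. In them Socs3 stood at 26.8, 4.21 and 19.8 CPM (control, 3 h, 6 h), and Pim3 at 43.8, 13.6 and 17.0 CPM. All 8 genes were lower in the free RNA of both treated libraries than in that of the control. The share of all genes lower in free RNA was not taken, so this count has no background. Nor were intervals taken, and some differences were small and rested on few UMIs. In free RNA Stat3 was at 35.4 CPM (50 UMIs) at 6 h against 38.9 CPM (135 UMIs) in the control, and Socs3 had 28 against 93 UMIs. In called cells 72.6% of all genes were below 0 at 3 h and 60.3% at 6 h. Subtracting the free RNA profile at 10% of UMIs left Socs3 at -1.03 and Pim3 at -1.43 at 3 h.

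Levels were also taken in the shallower and the deeper cells of each library, split at its median UMIs. Socs3 was at 22.3 and 22.2 CPM in shallower and deeper control cells, at 10.2 and 9.01 CPM at 3 h, and at 19.8 CPM (16.9 to 23.1) and 26.1 CPM (23.7 to 28.7) at 6 h. Both classes at 3 h thus lay below both classes of the other libraries, and at 6 h the deeper cells held the larger share. For Stat3 the control cells had 45.7 and 46.8 CPM, followed by 36.3 and 34.6 CPM after 3 h, and 57.0 and 56.1 CPM at 6 h, and its order over libraries was the same in both classes. Pim3 was at 53.8 and 54.0 CPM, 17.0 and 19.8 CPM, and 22.3 and 27.2 CPM, with the control above the others in either class.

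Within a library the genes showed little relation to each other from cell to cell. Over the 28 pairs, Spearman's rho ran from -0.04 to 0.08 in 2031 control cells thinned to 11000 UMIs, from -0.02 to 0.05 in 2243 cells at 3 h and from -0.04 to 0.03 in 2642 cells at 6 h, both thinned to 4000 UMIs. In counts this sparse such values are no finding, and all cells of a library share its preparation. The Fano factor (variance over mean of the thinned UMIs, near 1 for pure counting noise) ran between 0.977 and 1.09 for control cells, between 1.00 and 1.07 after 3 h and between 0.982 and 1.08 after 6 h, and no thinned cell held more than 4 UMIs of a gene.

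**Figure D4:**
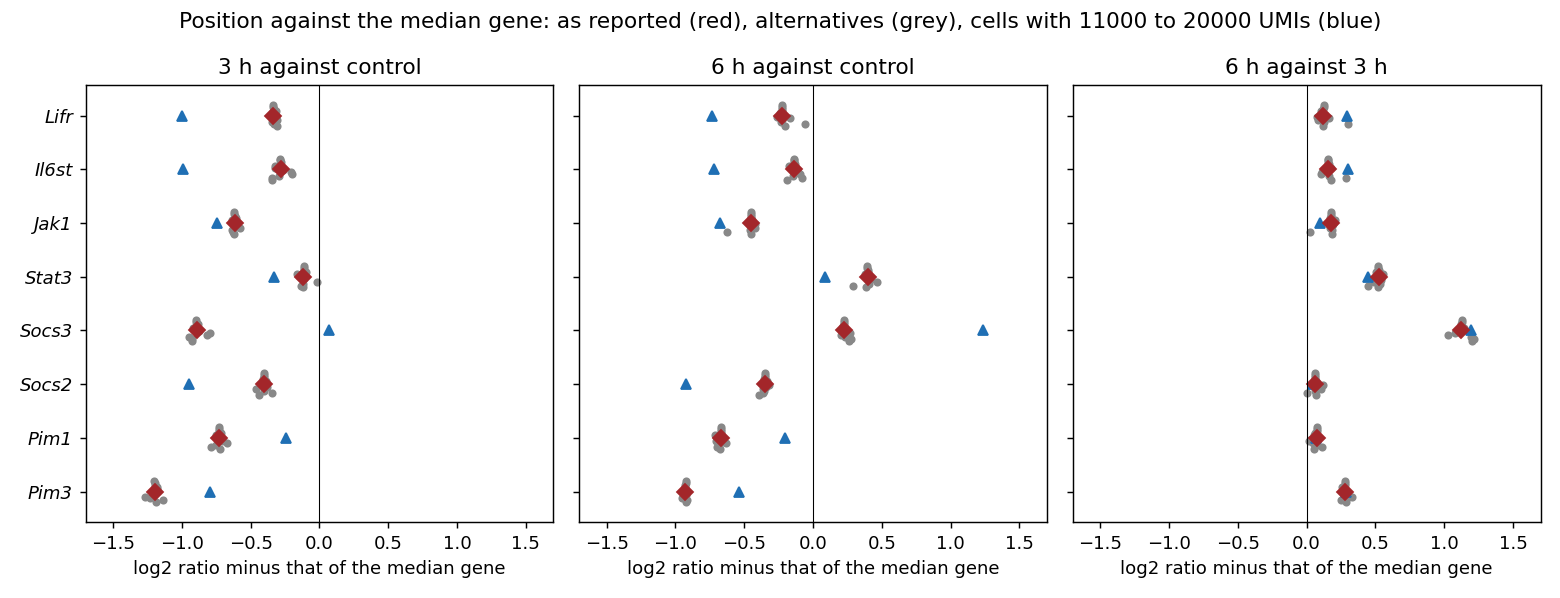
Log2 ratio of each gene minus that of the median gene, as reported (red diamonds), under the other choices of cells, scaling, free RNA and pseudocount (grey) and in cells of 11000 to 20000 UMIs (blue triangles). The grey points stay near the red ones, and the blue ones, which rest on 63 control cells, move most, Socs3 to 0.07 at 3 h and 1.24 at 6 h. Grey points from scaling cannot leave the red ones, apart from the pseudocount and the filter.

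The position of the genes against the median gene was largely kept by the choices of cells, free RNA and pseudocount, as the plot of settings shows. At 3 h all 8 lay below it, where 50% of all genes do. Each scaling tried multiplies a library by a single factor, which moves the 8 genes and the median gene alike. Apart from the pseudocount and the filter, scaling cannot change this position, so it was no test of it. The exception among the choices of cells was a window of 11000 to 20000 UMIs in every library, which left 63 control cells with 13 Socs3 UMIs. There the 3 h ratio of Socs3 minus that of the median gene was 0.07. The 6 h ratio of Stat3 was -0.28 there, still above the median gene of that window (-0.36). The order of the genes also changed in the window. At 3 h Lifr (-1.59), Il6st (-1.58) and Socs2 (-1.53) were below Pim3 (-1.39). At 6 h Socs2 (-1.29), Lifr (-1.09), Il6st (-1.08) and Jak1 (-1.04) were below Pim3 (-0.90). With the UMI minimum of the control in every library (1374 cells at 3 h, 536 at 6 h), Socs3 was at -1.23 and 0.19 and Stat3 at -0.43 and 0.21, while Pim3 at 6 h was at -0.99, just short of 2-fold.

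A feature of the transcripts that the choice of genes did not use is the pentamer ATTTA, the core of the AU-rich elements that mark many short-lived mRNAs for decay. It was counted after the ratios had been seen, in the longest annotated 3' UTR of each gene (GENCODE M21). The longest form may not be the one made in these cells. Pim3 held 5 in 964 bases (5.19 per kb), Pim1 5 in 1365 (3.66), Jak1 4 in 1128 (3.55) and Socs3 4 in 1474 (2.71). Lifr held 11 in 6320 (1.74), Socs2 2 in 1163 (1.72), Il6st 9 in 5641 (1.60) and Stat3 2 in 3701 (0.540). The 4 genes with the densest pentamers were therefore the 4 with the lowest ratios at 3 h, and Stat3 had the lowest density and the highest ratio.

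Over the 8 genes Spearman's rho between this density and the 3 h log2 ratio was -0.90, as a description with no test. Over 7654 genes tested with an annotated 3' UTR it was -0.26, in the same direction. Genes are not independent replicates, and the 2 values were not compared by a test. Genes at or above the density of Socs3 (1851) had a median 3 h ratio of -0.41 and those below it (5803) of -0.23, and 8.21% and 4.51% were at least 2-fold lower. This cut was taken from the order of the 8 genes themselves, as the lowest density of the 4 dense ones, after the ratios had been seen. For 6 h against the control rho was -0.83 over the 8 and -0.24 over all, and for 6 h against 3 h it was 0 and 0.03. The length of the 3' UTR itself had a rho of 0.69 with the 3 h ratio and 0.71 with the 6 h ratio over the 8, against -0.20 and -0.07 over all genes, and density, being a count over this length, is not independent of it. The richest 30-base stretch of each of the 4 dense 3' UTRs is given, with the pentamers in capitals, next to that of Stat3.
Pim3: ggggctATTTAttgtttaATTTAtttgctg
Pim1: taatgtATTTATTTATTTATTTAtttggtt
Jak1: aacaacATTTAaattcccATTTAtcaaatc
Socs3: tgcacatatATTTAtATTTAtactcagaaa
Stat3: aactgaaagggtATTTAggaaggcaaggct
In Pim1 the stretch holds 4 overlapping copies, in Pim3, Jak1 and Socs3 it holds 2, and in Stat3 it holds 1. Of the genes not printed, Lifr, with a low density, also holds 2 in its richest stretch, and Il6st and Socs2 hold 1.

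**Figure D5:**
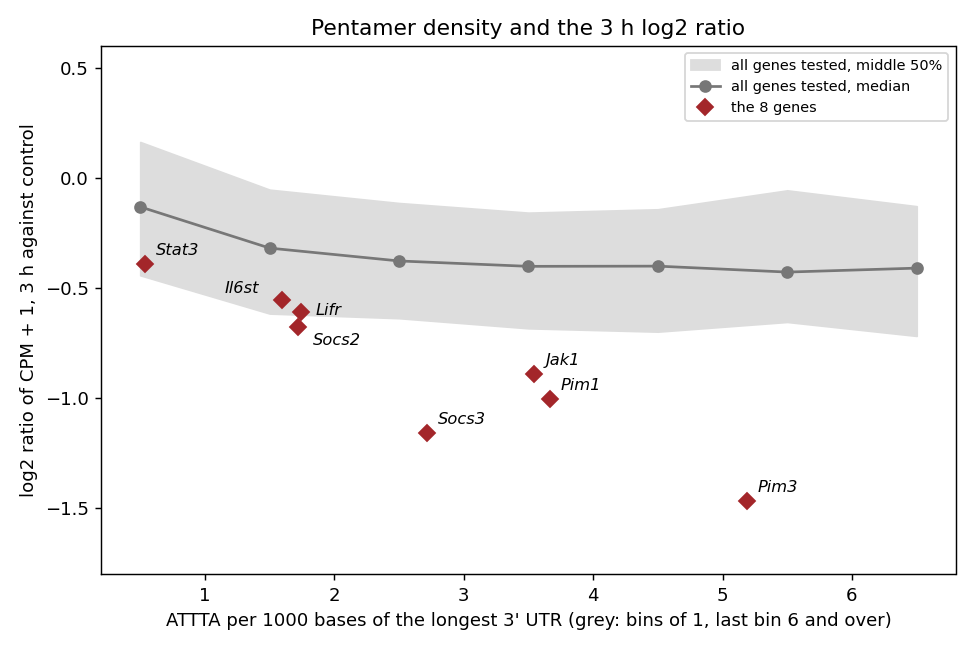
Log2 ratio at 3 h against the number of ATTTA per kb of the longest 3' UTR, for the 8 genes (red) and for all genes tested (grey line, median per bin of density; band, middle 50%). The median of all genes goes from -0.13 in the lowest bin to -0.38 in the bin from 2 per kb. From 3 per kb up it is nearly flat, between -0.40 and -0.43, with -0.41 in the highest bin. The 8 genes run from Stat3 (-0.39) to Pim3 (-1.47).

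Other genes of the pathway came from a list of 52 in 5 groups, of which 25 passed the filter. At 3 h 2 of the 25 were at least 2-fold lower and 0 higher, and at 6 h 2 were lower and 1 higher. Of all genes tested 5.54% were lower and 0.888% higher at 3 h, and 4.41% and 2.33% at 6 h, so these counts are near the background. Their medians, -0.23 and -0.16, were near those of all genes tested, -0.27 and -0.12. The 8 genes had medians of -0.78 and -0.41. Both sets were chosen with earlier results of these data known, so the contrast between them is no test.

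Of the ligands and other receptors only Cntfr, the receptor of ciliary neurotrophic factor, passed the filter, at 11.5, 12.9 and 11.1 CPM. Lif itself, named after its values were seen, had 32, 15 and 20 UMIs in cells that received LIF in the medium. Among other kinases and STATs 3 of 8 passed. Stat6 was at 16.3, 21.5 and 16.9 CPM, with log2 ratios of 0.38 and 0.05. No gene of this group that passed the filter was past 2-fold.

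Of 14 further feedback genes and phosphatases 9 passed, and all 9 were below 0 at 3 h, with a median of -0.44, where 72.6% of all genes were below 0. Of the 9, 6 were below the median gene, as 50% of all genes are. Socs6 was the lowest at 6 h, at 15.5, 8.36 and 8.59 CPM and ratios of -0.82 and -0.79. Pias1, which encodes a SUMO ligase that restrains cytokine signalling, was the highest, at 44.8, 44.4 and 57.9 CPM and ratios of -0.01 and 0.36. Of the adaptors 4 of 5 passed. Gab1, a docking protein for the phosphatase SHP2, was at 202, 149 and 148 CPM (-0.44 at both times), and Shc1 at 24.1, 30.6 and 29.7 CPM (0.33 and 0.29). No gene of these groups that passed the filter was past 2-fold. Below the filter, and named after its values were seen, Socs1, a feedback inhibitor that binds JAK kinases, was at 3.14, 0.669 and 0.689 CPM, with ratios of -1.31 and -1.29.

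Among list genes over the filter, those past 2-fold were all target genes. Gbx2, a naive-state transcription factor downstream of STAT3, was at 22.1, 5.32 and 3.12 CPM, with log2 ratios of -1.87 at 3 h and -2.49 at 6 h. Its mean of 10.2 CPM passed the filter through the control level alone, which favours a count as lower at both times. Klf4, another STAT3 target of the naive network, was at 60.5, 43.0 and 25.5 CPM, with ratios of -0.48 and -1.21. Both were lowest at 6 h. Junb, an AP-1 transcription factor gene that responds at once to cytokines, was at 42.3, 11.5 and 30.5 CPM, with ratios of -1.79 and -0.46. Its ratio between 6 h and 3 h was 1.33 (1.22 to 1.59), which made it the gene of the list at least 2-fold higher there, as Socs3 was among the 8. Icam1, an adhesion molecule gene, was at 29.4, 44.0 and 76.1 CPM, with ratios of 0.57 and 1.34. Tfcp2l1, named here after its values were seen as a STAT3 target of embryonic stem cells, was at 134, 117 and 178 CPM, with ratios of -0.19 and 0.40. Of the 8 targets over the filter 5 were below 0 at 6 h, where 60.3% of all genes were, and their median was -0.42 beside -0.12. They thus differed in direction. The targets below the filter (Pim2, Myc, Fos, Cebpb, Cebpd and Ier3), named after their values were seen, were all below 0 at 6 h. They ran from -2.21 for Myc to -0.21 for Pim2, whose interval (-0.53 to 0.03) held 0. The share of all genes below the filter that had such ratios was not taken, so this count has no background.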

How the data were processed

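The authors deposited unnormalised UMI counts for every gene and barcode, from Cell Ranger 7.1.0, per the file headers, on mm10, per the submitters' processing notes. The annotation and the treatment of intronic reads are not given in the sources used here. A barcode was taken as a cell if it held 500 genes or more, no more than 20% mitochondrial UMIs, and a UMI number of at least the 99th percentile among the 3000 largest barcodes divided by 10, which came to 11034, 2961 and 2107 UMIs. The called cells held 104892739, 29892000 and 24681924 UMIs. Doublets were kept, and no clusters were made.

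UMIs were summed over cells, scaled to CPM and compared as log2 ratios of CPM + 1, without tests. Intervals are exact conditional binomial intervals of the ratio without pseudocount. "At least 2-fold" is a rule of size applied where the mean reached 10 CPM. Alternatives covered the choice of cells, scaling, free RNA, pseudocount and filter. Scripts were tested on simulated data. The 8 genes and the lists were chosen with earlier results of these data known. Named from the list were the lowest and highest 6 h ratio of each group and genes past 2-fold (1 gene so named is not reported here), and for likeness the 3 nearest genes of the members with the lowest and highest 6 h ratio.

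Positions and 3' UTRs came from GENCODE M21 (GRCm38), promoters from RefSeq. Computations used Python 3.11.15 with scipy 1.17.1, and edgeR 4.0.16 in R 4.3.3 for TMM factors alone.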

Additional observations from a re-analysis of the deposited data

Results flagged for a closer look

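Stat3 stood out because it lay on opposite sides of the control at the 2 times: its log2 ratio was -0.39 at 3 h and 0.28 at 6 h, each beyond counting error. The difference between the times was not tested in replicates, and 1 control library, of 6 h, serves both ratios. The signs were the same under median-of-ratios factors (-0.15 and 0.29) and TMM factors (-0.20 and 0.25). UMIs per cell without scaling gave -2.30 and -2.21, and the window of 11000 to 20000 UMIs gave -0.92 and -0.28, from 61 Stat3 UMIs in 63 control cells.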

How the results depend on the processing

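No paired analysis was possible because each group has 1 library. The window of 11000 to 20000 UMIs, the control's UMI minimum in every library and the use of all barcodes were chosen after seeing the data. As reported, 3 of the 8 genes were at least 2-fold lower at 3 h, 1 was lower at 6 h and 1 was higher at 6 h against 3 h. Of the 25 list genes, 2, 2 and 1 were, and 1 was higher at 6 h against the control. Median-of-ratios factors left 1 of the 8 lower at 3 h and 1 list gene lower at each time; TMM factors left 1 of the 8 lower at 3 h. These factors also changed the split of all genes past 2-fold: at 3 h it was 437 lower and 70 higher as reported, 160 and 140 with median-of-ratios factors and 198 and 126 with TMM factors. At 6 h against 3 h it was 13 and 129 as reported, and 45 and 55 with either. UMIs per cell without scaling put all 8 genes (8 at 3 h, 8 at 6 h) and all 25 list genes (25 and 25) past 2-fold lower, 0 of either higher at 6 h in any comparison, and 1 list gene lower at 6 h against 3 h. Of all 7884 genes 7785 were then lower at 3 h and 7818 at 6 h, and the median gene shifted by -1.88 at 3 h and -2.41 at 6 h. At a mean of at least 50 CPM only Socs2 of the 8 was tested, and neither it nor any list gene was past 2-fold. Of all 3102 genes tested there 95 were lower and 22 higher at 3 h, and 75 and 42 at 6 h. Without a filter 8 of the 52 list genes were lower at each time, where 855 of all 32285 genes were at 3 h and 707 at 6 h. Leaving out cells above 2 times the median UMIs, or using all barcodes, left 1 list gene lower at each time. The window gave 5 of the 8 lower at 3 h and 4 at 6 h, from 63 control cells. These were not the genes reported as lower: they were Lifr, Il6st, Jak1 and Socs2 at both times, and Pim3 at 3 h. Socs3 (-0.52) and Pim1 (-0.84) fell short at 3 h, and Pim3 (-0.90) at 6 h. In the window 9 and 5 list genes were lower, and 0 list genes were higher at 6 h against the control. Of all 8189 genes tested there 2602 were at least 2-fold lower at 3 h and 1605 at 6 h. The control's UMI minimum left 0 of the 8 lower at 6 h. Causes other than the filter were not tested. The other 161 counts stayed within 1.5 times those reported. A drop from 3 to 2 of the 8 at 3 h, where Pim1 fell short of 2-fold, lies within this limit. With UMIs per cell left aside, Pim1 was at least 2-fold lower at 3 h in 5 of 13 alternatives. Socs3 was so in 10 and Pim3 in all 13. Each gene rested on 281 to 8144 UMIs a library, which sets the counting intervals; the spread between cultures is not shown by 1 library per group.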
